A study of Mus musculus with 6 samples.

Results

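Genes that mark injured or regenerating kidney tubules were examined in hypoxic mouse kidneys. The 10 members of this set, of 54532 named genes in all, were taken by gene symbol from the count table, and each symbol matched 1 row. The members were Havcr1, Vcam1, Lcn2, Spp1, Clu, Krt8, Krt18, Krt20, Sox9 and Sox4. Whole-kidney mRNA had been sequenced from 3 WT libraries and 3 libraries labelled Lpar3-/-, that is, from mice without functional alleles of the gene for lysophosphatidic acid receptor 3. Both groups had breathed 8% oxygen at normal pressure for 12 h before the kidneys were taken, and kidneys from normal air were not analysed here. The comparison is therefore between genotypes under hypoxia. The sources used here do not give strain, sex, age or how the allele was made. They also do not say whether each library came from its own animal, so the p-values reflect only how far these libraries spread, which may be technical.

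Tubule cells, above all those of the proximal tubule, lose their specialised functions when they are damaged by lack of blood flow, toxins or obstruction. Damaged cells that survive flatten, re-express genes of the developing kidney, put adhesion and scavenger proteins on their surface and secrete proteins that can be measured in urine. Havcr1 and Lcn2 encode the urinary injury markers KIM-1 and NGAL, Sox9 and Sox4 encode transcription factors of development and repair, and Vcam1 is known as a marker of tubule cells that fail to complete repair.

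Libraries held between 16011804 and 17991881 counts, and 15225 genes passed the filter on low counts, among them all 10 members. Kidney identity genes, from Lrp2 and Slc34a1 of the proximal tubule to Umod of the thick ascending limb and Aqp2 of the collecting duct, were expressed in both groups. Lpar3 was not lower in the second group (36.3 ± 1.31 CPM in WT against 36.4 ± 2.51 CPM, SD, n = 3 each). CPM are counts scaled to a common library size with TMM factors. As counts per gene do not show an altered exon, they do not check the label, and every direction between the groups below rests on the labels. Epo, the erythropoietin gene named in the study's title, had a log2 fold change of -1.77 (SE 0.26, edgeR quasi-likelihood, adjusted p = 0.0136). WT replicate 2 stood apart in many of the results below, so those that rest on it are given with and without it.

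Per length of transcript, Spp1 was the most abundant member, with a mean of 353 FPKM over the 6 libraries. Krt8 followed at 83.9, Clu at 31.5, Krt18 at 20.3 and Havcr1 at 12.2 FPKM. Sox4 (2.84), Lcn2 (2.20), Vcam1 (1.67), Krt20 (0.782) and Sox9 (0.341 FPKM) were scarce. Neighbours kept this order in each library for 6 of the 9 neighbouring pairs. In the other 3 pairs, Krt18 with Havcr1, Sox4 with Lcn2 and Lcn2 with Vcam1, the order was turned in 1 of 6 libraries, and that library was WT replicate 2 each time. There Vcam1 (5.16 FPKM) exceeded Lcn2 (4.06 FPKM), and Lcn2 exceeded Sox4 (3.10 FPKM).

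RefSeq promoter sequences on GRCm38.p6 were at hand for 7 members. Vcam1, Clu and Sox9 were not among them. Those of Krt20, Havcr1, Spp1 and Sox4 are shown because these genes stand for the 3 patterns met below: Krt20 had the largest fold change of the 10, Havcr1 and Spp1 changed sign when a single library was left out, and Sox4 hardly depended on any library. The stretches lie 5′ of the RefSeq start and hold no annotated exon of the gene (that of Sox4, 236 bases, stops where its annotated exon begins), at chr11:99438154-99438403 (minus strand), chr11:46750261-46750510 (plus strand, the middle of 3 RefSeq starts), chr5:104434861-104435110 (plus strand) and chr13:28953714-28953949 (minus strand). Capitals mark matches, on either strand, to TATAAA (the TATA box) or ACGTG (the core that hypoxia-inducible factors bind).
Krt20: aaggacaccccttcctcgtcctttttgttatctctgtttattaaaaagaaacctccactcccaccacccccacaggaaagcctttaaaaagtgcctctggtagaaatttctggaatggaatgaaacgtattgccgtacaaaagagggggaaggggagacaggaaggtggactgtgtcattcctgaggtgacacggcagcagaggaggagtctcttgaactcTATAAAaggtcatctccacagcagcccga
Havcr1: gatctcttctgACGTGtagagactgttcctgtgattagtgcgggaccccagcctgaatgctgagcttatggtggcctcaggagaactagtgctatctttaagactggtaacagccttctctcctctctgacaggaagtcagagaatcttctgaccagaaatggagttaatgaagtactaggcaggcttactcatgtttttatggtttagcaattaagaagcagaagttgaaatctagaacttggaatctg
Spp1: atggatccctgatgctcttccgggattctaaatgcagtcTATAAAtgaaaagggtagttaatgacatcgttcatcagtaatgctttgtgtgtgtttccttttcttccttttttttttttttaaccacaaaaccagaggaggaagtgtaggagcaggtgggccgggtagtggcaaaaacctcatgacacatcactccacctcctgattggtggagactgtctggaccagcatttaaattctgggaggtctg
Sox4: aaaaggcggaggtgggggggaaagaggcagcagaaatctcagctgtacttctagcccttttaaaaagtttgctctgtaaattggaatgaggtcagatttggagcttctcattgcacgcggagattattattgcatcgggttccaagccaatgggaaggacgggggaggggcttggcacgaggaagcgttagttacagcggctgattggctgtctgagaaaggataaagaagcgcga
Within the 250 bases before the start, Krt20 had TATAAA beginning 29 bases upstream, Spp1 had it 211 bases upstream, and the Havcr1 start shown had ACGTG 239 bases upstream. Of 32841 mouse promoter windows of this length, 12.4% held TATAAA and 16.6% held ACGTG. No match of the AP-1 motif TGANTCA (6.75% of windows), the STAT motif TTCNNNGAA (7.02%) or the NF-kB consensus (7.25%) was found in the windows of these 4 genes. Among the other member windows, Krt18 had an NF-kB match 47 bases upstream and a further Havcr1 start had ACGTG 154 bases upstream. No matches overlapped. They describe letters and not binding.

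None of the 10 members passed the test across all genes. Under edgeR's quasi-likelihood test with Benjamini-Hochberg adjustment over the 15225 genes, 57 genes were called at an adjusted p under 0.05, which is 0.374% of those tested (0.250% lower and 0.125% higher in the libraries labelled Lpar3-/-), and 0 of them were members. DESeq2 and limma-voom also called 0 members. Of the 10, 9 had a negative log2 fold change (libraries labelled Lpar3-/- over WT), where 51.1% of all genes did. The median was -0.47 for the members and -0.0036 for all genes. An unadjusted p under 0.05 with a lower mean was met by 6 members (Krt20, Sox4, Lcn2, Vcam1, Clu and Sox9), against 5.21% of all genes. In either direction these were still 6 members, against 9.18%.

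**Figure D1:**
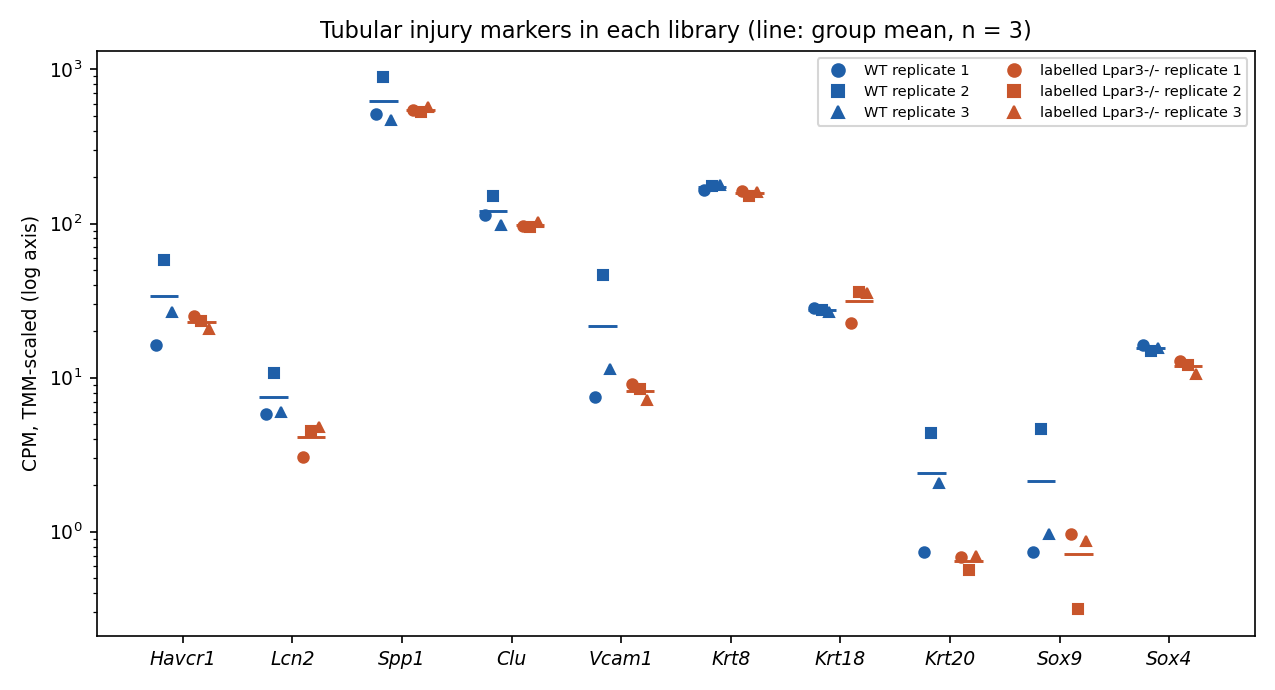
Level of each member in each library in CPM on a log axis, with WT libraries in blue, libraries labelled Lpar3-/- in orange, a symbol per replicate and a line at the group mean. WT replicate 2 (blue square) is the highest of the 6 libraries for Havcr1, Lcn2, Spp1, Clu, Vcam1, Krt20 and Sox9, and not for Krt8, Krt18 and Sox4.

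These counts depended on WT replicate 2. With it left out, edgeR again called 0 members (0.462% of all genes), 7 of the 10 fold changes were negative (51.1% of all genes), the median was -0.16, and 3 members, Krt20, Sox4 and Lcn2, had a lower mean at an unadjusted p under 0.05 (4.71% of all genes). In 4 members, Lcn2, Krt8, Krt20 and Sox4, the 3 libraries labelled Lpar3-/- all lay below the 3 WT libraries, as did 7.12% of all genes. For 0 members did they all lie above, against 6.58%. Leaving out WT replicate 2, the number below was again 4, against 12.4% of all genes. In each of these 4 members, the closest libraries of the groups had overlapping exact Poisson 95% intervals of their counts (counting error only).

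Havcr1 encodes KIM-1, a membrane receptor with which injured tubule cells take up dead neighbours (ENSMUSG00000040405, GRCm38 chromosome 11, 46735080 to 46779578, plus strand). Its counts were 287, 984 and 442 in WT replicates 1 to 3 and 442, 369 and 358 in the libraries labelled Lpar3-/-, or 16.2, 58.2 and 26.7 CPM against 25.2, 23.2 and 20.7 CPM. The groups overlapped, and the lowest of the 6 libraries was also a WT library. EdgeR gave a log2 fold change of -0.55 (SE 0.33, 95% interval -1.27 to 0.18, edgeR adjusted p = 0.691). It was 0.11 without WT replicate 2 (edgeR adjusted p = 0.911), so the sign rested on that library. Over the 15 alternatives the adjusted p ran from 3.49e-05 (edgeR with no filter on low counts) to 0.99998 (DESeq2).

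Vcam1 encodes an adhesion protein that binds the integrin alpha 4 beta 1 of leukocytes and is made by activated endothelium as well as by tubule cells (ENSMUSG00000027962, chromosome 3, 116109949 to 116129688, minus strand). It had 132, 778 and 189 counts in WT and 159, 134 and 124 in the libraries labelled Lpar3-/-. In CPM these were 7.45, 46.0 and 11.4 against 9.06, 8.44 and 7.17. WT replicate 2 held 4.88 times the mean of the other WT libraries, of which replicate 1 lay within the range of the other group and replicate 3 above it. The log2 fold change of -1.39 (SE 0.51, 95% interval -2.52 to -0.27, edgeR adjusted p = 0.397) was -0.20 without that library. An exon of Vcam1 overlaps an antisense gene, Gm43109, and one of Krt8 a lincRNA gene on the other strand, Gm36026, while the strand setting of the counting is not given.

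Lcn2 encodes NGAL, a secreted protein that binds bacterial iron carriers and is stored in neutrophil granules as well as made by injured tubules (ENSMUSG00000026822, chromosome 2, 32384633 to 32388252, minus strand). It had 103, 181 and 99 counts in WT against 54, 72 and 83, or 5.81 to 10.7 CPM against 3.08 to 4.80 CPM. The groups did not overlap. Yet the exact Poisson 95% intervals of WT replicate 1 (84.1 to 125 counts) and replicate 3 labelled Lpar3-/- (66.1 to 103 counts) did. The WT mean was 1.81 times that of the other group (log2 fold change -0.86, SE 0.26, 95% interval -1.44 to -0.28, edgeR adjusted p = 0.287). Leaving out WT replicate 2, the fold change was -0.51 and the groups still did not overlap.

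Spp1, the gene of osteopontin, a secreted matrix and urine protein that the loop of Henle makes in the normal kidney, was the most abundant member (ENSMUSG00000029304, chromosome 5, 104435118 to 104441050, plus strand). Its levels were 510, 889 and 473 CPM in WT and 546, 526 and 571 CPM in the libraries labelled Lpar3-/-. The 3 latter libraries lay between WT replicate 2 and the other WT libraries. EdgeR gave a log2 fold change of -0.19 (SE 0.18, 95% interval -0.59 to 0.22, edgeR adjusted p = 0.840), and it was 0.16 without WT replicate 2. An exon of Spp1 overlaps an unclassified transcript on the same strand, Gm42793, with which reads could be shared.

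Clu encodes clusterin, an extracellular chaperone for misfolded proteins (ENSMUSG00000022037, chromosome 14, 65968483 to 65981547, plus strand). It stood at 113, 151 and 97.4 CPM in WT and at 96.5, 95.2 and 102 CPM in the libraries labelled Lpar3-/-. WT replicate 3 lay among the latter. EdgeR gave a log2 fold change of -0.30 (SE 0.13, 95% interval -0.58 to -0.025, edgeR adjusted p = 0.501) and -0.11 without WT replicate 2.

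The keratins, which form intermediate filaments as pairs of a type II and a type I chain, did not share 1 pattern. Krt8 (type II, chromosome 15, 101996698 to 102004482, minus strand) and its partner Krt18 (type I, chromosome 15, 102028180 to 102032027, plus strand) lie next to each other and are expressed in normal collecting ducts and in injured tubules. Krt8 was even, at 166, 176 and 177 CPM in WT against 163, 151 and 160 CPM. Its groups lay side by side without overlap (log2 fold change -0.13, SE 0.068, 95% interval -0.28 to 0.016, edgeR adjusted p = 0.606). The exact Poisson 95% intervals of WT replicate 1 (2834 to 3047 counts) and replicate 1 labelled Lpar3-/- (2761 to 2972 counts) did overlap.

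Krt18 was the single member with a positive fold change (0.20, SE 0.15, 95% interval -0.12 to 0.52, edgeR adjusted p = 0.764). It had 28.2, 27.3 and 26.7 CPM in WT, a narrow range, and 22.8, 36.0 and 35.6 CPM in the libraries labelled Lpar3-/-, which lay on both sides of WT. The fold change was 0.39 without replicate 1 of that group, and 0.092 and 0.10 without its replicates 2 and 3. The ratio of Krt8 to Krt18 in FPKM was 4.32, 4.73 and 4.87 in WT and 5.26, 3.07 and 3.30 in the other group. Along with Krt18, the summed level of 10 urothelial markers was lowest in replicate 1 of the libraries labelled Lpar3-/- (29.6 CPM against 62.1 and 51.6 CPM), and so was that of 6 thin limb markers (425 CPM against 557 and 562 CPM). In WT these sums ranged from 28.9 to 56.4 and from 468 to 598 CPM with an even Krt18, and their part in the result was not tested. An annotated pseudogene, Krt8-ps, never had more than 8 counts, and reads could be shared with it.

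Krt20, a type I keratin of gut and of urothelial surface cells that injured tubules switch on, had the largest fold change of the members (ENSMUSG00000035775, chromosome 11, 99428403 to 99438150, minus strand). It had 13, 74 and 34 counts in WT and 12, 9 and 12 in the libraries labelled Lpar3-/-, or 0.734, 4.38 and 2.06 CPM against 0.683, 0.567 and 0.694 CPM. The groups did not overlap, but WT replicate 1 was within counting error of the other group (exact Poisson 95% interval 6.92 to 22.2 counts for the 13 counts, counting error only). EdgeR gave a log2 fold change of -1.86 (SE 0.56, 95% interval -3.08 to -0.65, edgeR adjusted p = 0.270). It was -1.08 without WT replicate 2, and -2.30 without WT replicate 1, when Krt20 passed the test (edgeR adjusted p = 0.0269). Over the 15 alternatives the adjusted p ran from 0.000286 (edgeR with no filter on low counts) to 0.671 (edgeR without replicate 3 labelled Lpar3-/-). Urothelial markers summed to 28.9 CPM in WT replicate 2, the lowest of the 6 libraries, and Krt20 was highest there. The part of urothelial cells in the level of Krt20 was not tested.

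Sox9, a transcription factor of the developing nephron that is switched on within hours of tubular injury, had few counts in 5 of the 6 libraries (ENSMUSG00000000567, chromosome 11, 112782224 to 112787760, plus strand). It had 13, 79 and 16 counts in WT and 17, 5 and 15 in the libraries labelled Lpar3-/-, or 0.734, 4.67 and 0.968 CPM against 0.968, 0.315 and 0.867 CPM. WT replicate 2 held 4.83 times the level of the next library, and the groups overlapped. The log2 fold change of -1.54 (SE 0.67, 95% interval -3.01 to -0.077, edgeR adjusted p = 0.516) was -0.23 without WT replicate 2.

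Sox4, a SOX factor of progenitor cells that is expressed at a moderate level in normal kidney, behaved otherwise (ENSMUSG00000076431, chromosome 13, 28948919 to 28953713, minus strand). Its levels were 16.3, 15.0 and 15.6 CPM in WT and 12.9, 12.2 and 10.5 CPM in the libraries labelled Lpar3-/-. WT replicate 2 was the lowest of the WT libraries, and the groups did not overlap. The WT mean was 1.32 times the other (log2 fold change -0.40, SE 0.12, 95% interval -0.66 to -0.14, edgeR adjusted p = 0.273), and without WT replicate 2 the fold change was -0.43. Among the edgeR fits with 1 library left out it ran from -0.46 to -0.32 and did not pass (edgeR adjusted p = 0.294 to 0.754). The single exon of Sox4 overlaps a lincRNA gene on the other strand, Gm26735. Of 12 other SOX genes, 8 were tested, edgeR called 0, and 1 had an unadjusted p under 0.05, Sox12 (log2 fold change -0.23, SE 0.10).

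**Figure D2:**
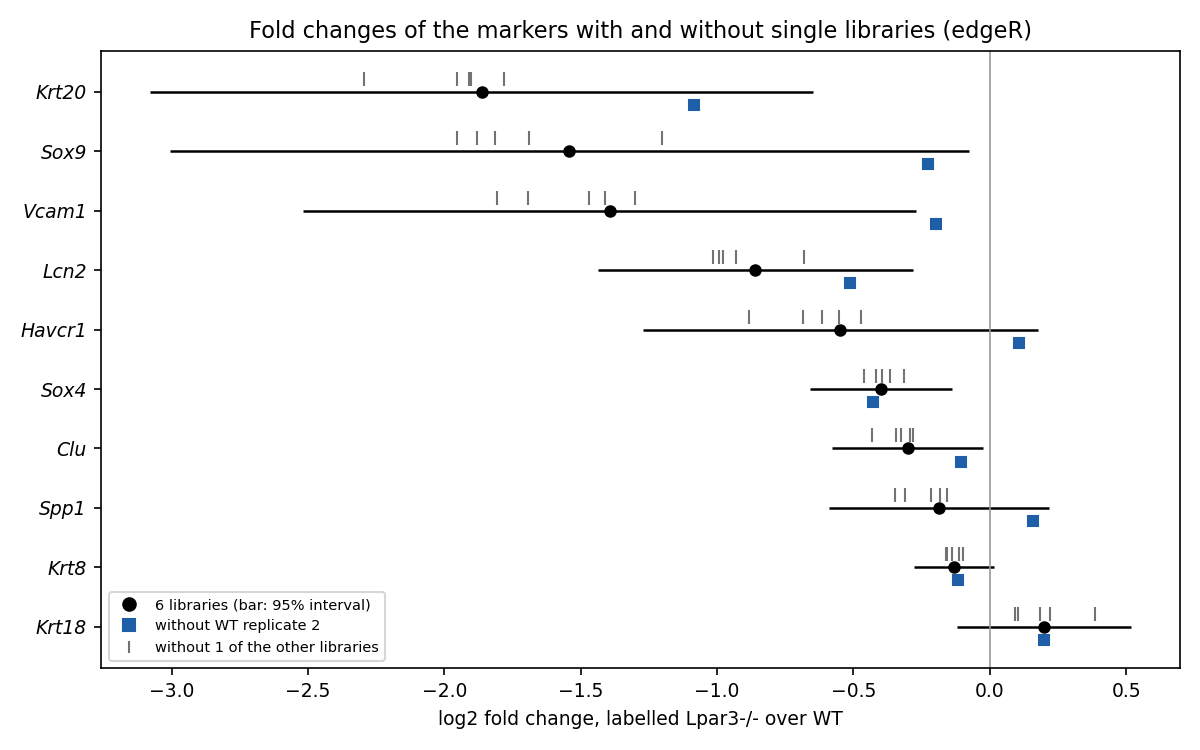
Log2 fold change of each member, libraries labelled Lpar3-/- over WT, from edgeR with 6 libraries (black, bar for the 95% interval), without WT replicate 2 (blue square) and without each other library (grey ticks). Without WT replicate 2 the fold changes of Sox9, Vcam1, Havcr1, Spp1 and Clu lie between -0.23 and 0.16, while those of Sox4 and Krt8 stay near their values with 6 libraries.

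The members differed widely in their spread within WT. The range of a gene over 3 libraries was taken as the highest minus the lowest log2(CPM + 0.5). For Vcam1 this range was 2.55 in WT, wider than for 99.9% of the tested genes. Sox9 (2.07), Krt20 (1.98) and Havcr1 (1.81) were wider than 99.8%, 99.8% and 99.7% of them. With log2(CPM + 2), which weighs few counts less, the ranges of Sox9 and Krt20 were 1.29 and 1.22, below the 1.73 of Havcr1, and that of Vcam1 was 2.35. Spp1 (0.91), Lcn2 (0.83) and Clu (0.63) exceeded 94.2%, 92.2% and 85.3% of the genes. Sox4 (0.12), Krt8 (0.093) and Krt18 (0.077) were below the WT median of all genes, which was 0.27.

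Within the libraries labelled Lpar3-/- the median range over all genes was 0.21. Krt20 (0.16), Spp1 (0.12) and Clu (0.094) were below it there, and Vcam1 (0.32) and Havcr1 (0.28) were above it. Sox9 (0.85), Krt18 (0.65) and Lcn2 (0.57) were the widest members in that group, wider than 95.6%, 90.6% and 87.4% of the genes. Over all genes, 61.0% had the wider range in WT. WT replicate 2 set the top of the WT range for 7 of the 10 members. It was not the main source of the WT spread over all genes. There, WT replicates 1 and 3 differed nearly as much from each other as from WT replicate 2 (chi-square per degree of freedom between libraries). With 3 libraries a group, these values describe these libraries and not a property of the genotype.

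**Figure D3:**
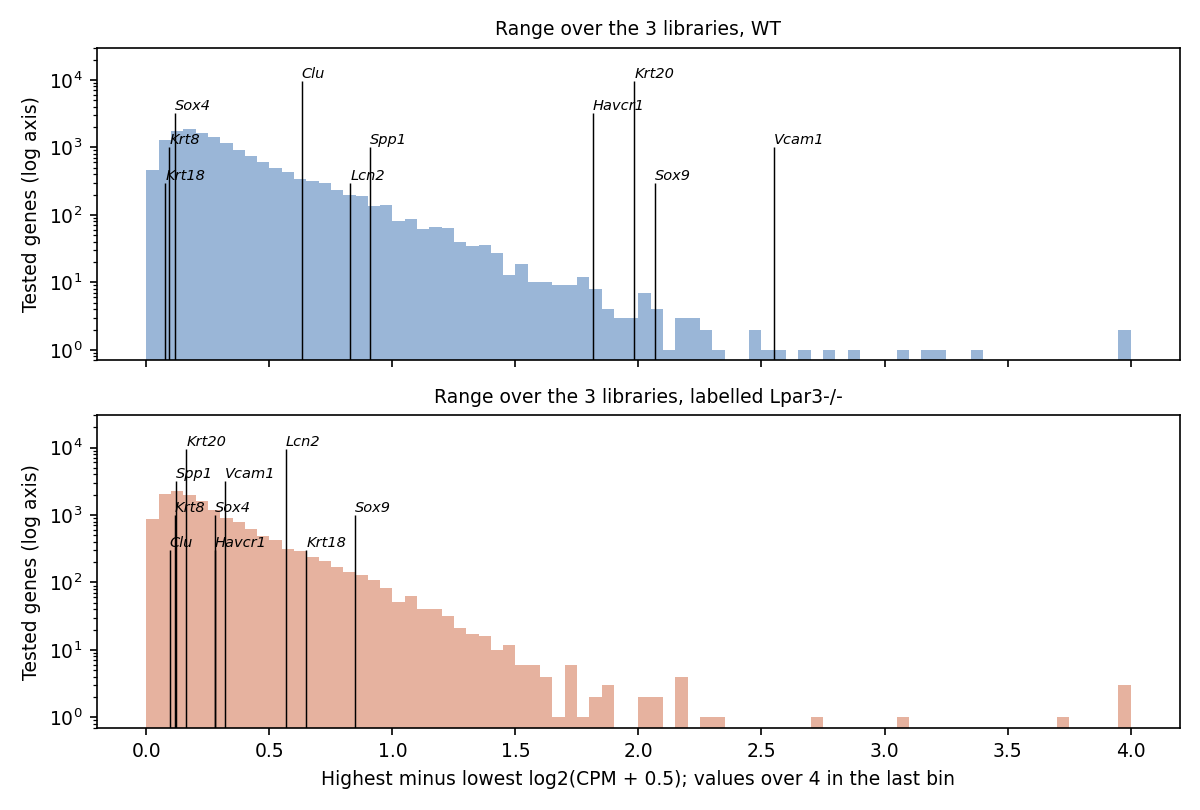
Number of tested genes (log axis) by range over the 3 libraries of a group, highest minus lowest log2(CPM + 0.5), with the members marked by lines, for WT above and the libraries labelled Lpar3-/- below. Havcr1, Krt20, Sox9 and Vcam1 lie in the far tail in WT (1.81 to 2.55; with log2(CPM + 2) Krt20 and Sox9 have 1.22 and 1.29), and no member exceeds 0.85 in the other group.

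WT replicate 2 was the highest of the 6 libraries for 7 of the 10 members, where it was so for 21.9% of all genes. In 3 members, Havcr1, Vcam1 and Sox9, it exceeded each of the other 5 libraries by over 2-fold (CPM + 0.5), which held for 28 genes or 0.184% of those tested. Among those 28, picked out after their values were seen, were C3, the central complement component (63.4, 260 and 74.1 CPM in WT against 57.8, 44.1 and 51.4 CPM), and Cd44, the receptor of hyaluronan and osteopontin (1.41, 9.11 and 2.96 CPM against 0.911, 0.441 and 1.33 CPM). The stress-induced transcription factor gene Atf3 was another (1.19, 6.69 and 2.72 CPM against 1.37, 0.882 and 0.983 CPM). WT replicate 2 stood furthest above the next library for Entpd4b (0.452, 9.47 and 0.726 CPM in WT). The 28 were not only injury genes. They also held the immunoglobulin genes Igkc (4.29, 27.6 and 9.43 CPM in WT), Igha and Jchain. The antigen presentation genes Cd74, H2-Eb1 and H2-DMb2 were there as well, as were Ccl5, Ccr2, Cxcl10, Il10ra and Dbp. As the lone highest library by this margin, WT replicate 1 had 6 genes, WT replicate 3 had 11, and the libraries labelled Lpar3-/- had 1, 3 and 1, with no member among them.

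The 6 genes whose log2 levels followed the mean of the members most closely over the 6 libraries were Coro1a, Fgl2, Fhl1, C3, Cd14 and Cd74, with Pearson correlations of 0.985 to 0.994 that rest on 6 points and in large part on 1 library. Coro1a, an actin-binding protein of leukocytes, had 6.21, 13.7 and 7.86 CPM in WT against 6.55, 6.30 and 6.36 CPM. Cd74, the invariant chain of antigen presentation, had 139, 345 and 149 CPM against 123, 132 and 143 CPM. Member by member, the closest gene of Vcam1 was Cx3cl1, which encodes the chemokine fractalkine (44.5, 61.4 and 47.4 CPM in WT against 44.2 to 46.0 CPM, correlation 0.999). That of Krt20 was Slc20a1, a phosphate transporter gene (20.7, 46.6 and 29.6 CPM in WT against 19.5 ± 0.562 CPM, correlation 0.997), and that of Sox9 was Tlr2, a receptor for bacterial lipoproteins (4.52, 11.6 and 4.66 against 4.73, 3.65 and 4.57 CPM, correlation 0.990). The closest gene of Sox4 was Aplp1 (10.1 ± 0.202 CPM in WT against 6.47 ± 1.06 CPM, correlation 0.991), which was flat within WT. For the other members these were Vstm4 (Havcr1), Fam208b (Lcn2), Syap1 (Spp1), Myo7b (Clu), Map4k4 (Krt8) and Ddb2 (Krt18), with correlations of 0.989 to 0.996. Some varied little, such as Syap1 (80.9 to 86.3 CPM over the 6 libraries).

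Other genes known to be raised in injured or repairing tubules gave a mixed picture. Of 33 listed, 28 were tested, edgeR called 0, 16 had a negative fold change, and the median was -0.059. At an unadjusted p under 0.05, 8 had a lower mean and 1 a higher one in the libraries labelled Lpar3-/-. The lower ones with the smallest p were Cd44 (log2 fold change -2.31, SE 0.62), Tnfrsf12a, the receptor of the injury cytokine TWEAK (40.1 ± 10.1 against 27.3 ± 4.15 CPM, SD, n = 3 each), and C3 (133 ± 111 against 51.1 ± 6.81 CPM). Prom1, the gene of the progenitor marker CD133, was the higher one (50.1 ± 5.82 against 64.0 ± 4.30 CPM, log2 fold change 0.35, edgeR adjusted p = 0.171). Without WT replicate 2, 14 of the 28 were negative, 5 were lower and 3 higher at an unadjusted p under 0.05, Cd44 and C3 had log2 fold changes of -1.27 and -0.43, and Prom1 passed the test (log2 fold change 0.45, edgeR adjusted p = 0.0322).

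Genes of the differentiated proximal tubule, which injured cells are known to lose, went both ways. Of the 18 tested, 9 had a negative and 9 a positive fold change, the median was -0.0076, and edgeR called 0, with 3 lower and 2 higher at an unadjusted p under 0.05. Slc5a12, a lactate transporter gene, had 817 ± 111 CPM in WT against 1064 ± 25.8 CPM, and Slc5a2, which encodes the glucose transporter SGLT2, had 333 ± 12.4 against 270 ± 36.4 CPM (SD, n = 3 each). In WT replicate 2, where 7 members were highest, the 18 genes summed to 45729 CPM, above the 40158 to 42244 CPM of the other libraries. Kap, an androgen-regulated gene and the most abundant of the list, made up much of this (16695 CPM there against 12657 to 14329 CPM), and 5 of the 18 genes were highest in that library. Leaving that library out, 9 of the 18 were negative and the median was 0.023. Then 2 were lower and 3 higher at an unadjusted p under 0.05, and edgeR called 1 of the 18 (0.462% of all genes).

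Receptors, ligands and relatives of the member proteins had a median fold change of -0.18, with 12 of 14 negative, 5 of them at an unadjusted p under 0.05, and edgeR called 0. Apart from Cd44 these were led by Cd1d1, an antigen-presenting molecule gene (2.66 ± 0.255 against 1.39 ± 0.387 CPM), Itgb7, an integrin chain that can bind VCAM-1 (2.02 ± 0.415 against 1.09 ± 0.201 CPM), and Havcr2, a relative of Havcr1 on leukocytes (0.781 ± 0.171 against 0.230 ± 0.246 CPM). Lrp2, the megalin gene, whose product takes up NGAL and clusterin, had 1620 ± 36.9 against 1708 ± 72.4 CPM. Of 19 genes of the NF-kB pathway and its targets, which include regulators of Vcam1 and Lcn2, 12 were tested. Their median was -0.36, and 10 were negative. EdgeR called 0 of them, and 4 were lower at an unadjusted p under 0.05, led by Relb, an NF-kB subunit gene (7.90, 9.23 and 11.2 CPM in WT against 6.04, 6.49 and 5.20 CPM). Leaving out WT replicate 2, the median was -0.054 and 1 was lower. Other filament and junction partners of the keratins had a median of 0.098 over 12 genes, with 3 negative. Vim, the vimentin gene of dedifferentiated cells (39.2 ± 5.47 against 31.3 ± 1.59 CPM), and Krt19 (6.55 ± 1.63 against 4.15 ± 1.39 CPM) were the 2 lower at an unadjusted p under 0.05.

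Markers of other cell types moved with the members in WT replicate 2. The 14 macrophage and dendritic cell markers summed to 540 CPM there and to 232 to 284 CPM in the other 5 libraries. Of those, 13 were tested and 13 were negative (median -0.56), 5 of them at an unadjusted p under 0.05, and edgeR called 0. With that library left out, 12 of 13 were negative with a median of -0.18, and 3 were lower at an unadjusted p under 0.05. With all 6 libraries, C1qa had 16.2 ± 2.67 against 11.1 ± 0.359 CPM. Ptprc, the pan-leukocyte CD45 gene, had 9.87 ± 1.89 against 6.23 ± 0.508 CPM (SD, n = 3 each). Cd74, the most abundant marker, made up much of the sum in WT replicate 2 (345 CPM there against 123 to 149 CPM elsewhere). Of the 13 tested markers, 12 were highest in that library. Fibroblast and pericyte markers summed to 341 CPM in WT replicate 2 and to 189 to 251 CPM elsewhere, and lymphocyte markers to 11.4 against 3.59 to 8.59 CPM. Whether more leukocytes, more injured tubule cells or more RNA per cell gave these levels cannot be told apart in whole-kidney RNA, and the part of these cell types in the members' levels was not tested.

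Other lists bear on members that several cell types make. The 12 neutrophil markers, a source of Lcn2 outside the tubule, summed to 6.45 CPM in WT replicate 2 and to 2.72 to 3.57 CPM in the others, with Mpo and Elane at 0 counts in each library, and S100a8 had 17, 31 and 17 counts in WT against 10, 11 and 3. The 10 endothelial markers, for the other main source of Vcam1, summed to 744 CPM in WT replicate 2, inside the 709 to 791 CPM of the other libraries. Collecting duct markers, for Krt8 and Krt18, summed to 1132 to 1259 CPM in WT and 1218 to 1324 CPM in the other group. Adipose markers summed to 183 to 345 CPM in WT and 124 to 198 CPM in the other group, with the highest sum in WT replicate 1. Of 7 tested, 7 were negative (median -1.51), 6 of them at an unadjusted p under 0.05, and edgeR called 0. Adrenal markers summed to at most 5.37 CPM, with Cyp11b1, Cyp11b2, Cyp21a1 and Th at 0 counts, and Krt13 of the urothelium was at 0 as well.

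**Figure D4:**
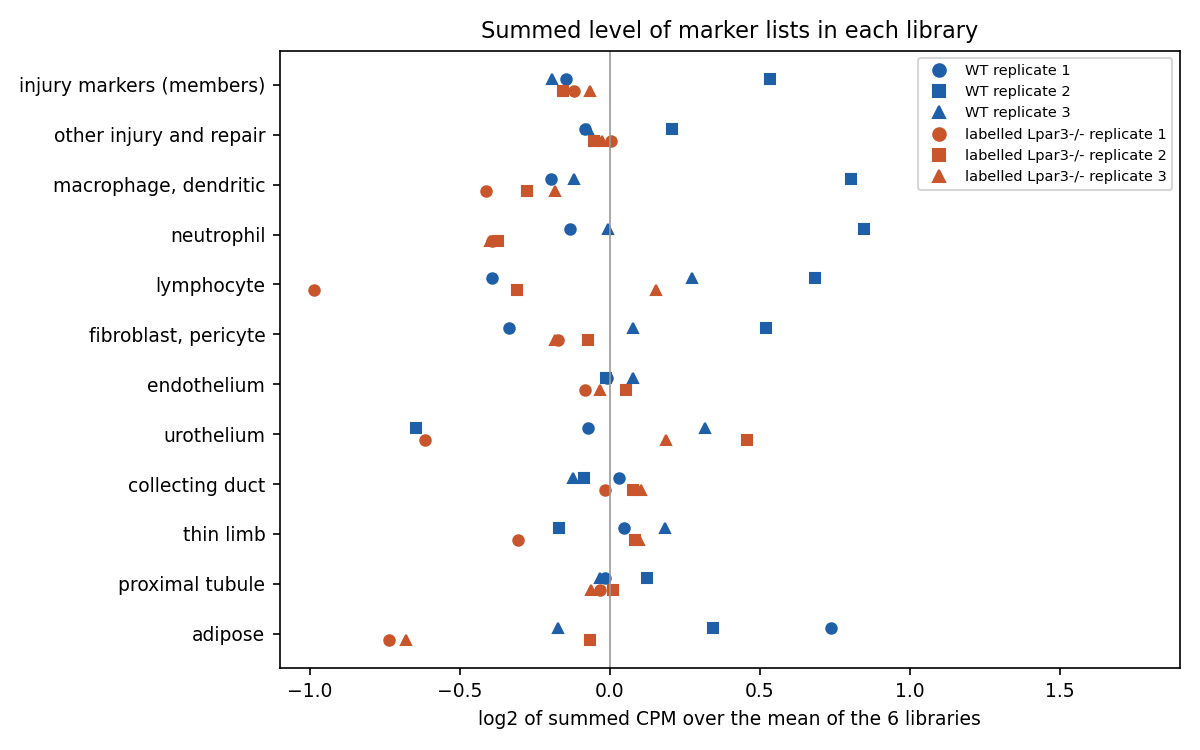
Summed CPM of the members and of marker lists in each library, as log2 of the sum over the mean of the 6 libraries, with WT in blue and libraries labelled Lpar3-/- in orange. WT replicate 2 (blue square) stands above the other libraries for the members, other injury genes, macrophage, neutrophil, lymphocyte and fibroblast markers and, by less, proximal tubule genes, but not for endothelium, urothelium, collecting duct, thin limb or adipose markers. There Spp1 held 889 of the members' 1382 CPM, and Cd74 held 345 of the 540 CPM of the macrophage list. Of the neutrophil and lymphocyte genes, 9 of 12 and 6 of 10 were too low to be tested.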

How the data were processed

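The authors deposited whole-number read counts per gene and FPKM values, each in a column for every library. The submitters' processing notes name GRCm38, DESeq2 1.20.0, HISAT2 2.0.5 and featureCounts 1.5.0-p3. The sources used here give neither the strand setting nor the annotation release nor how multi-mapping reads were handled. FPKM, made by the authors, served to compare levels between genes and for an alternative test. Groups and replicate numbers came from the sample titles. Of 54909 rows, 377 without a gene name (0.259% to 0.362% of a library's counts) were left out.

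The main test was edgeR 4.0.16 (R 4.3.3), quasi-likelihood, on the counts of all 6 libraries, with TMM, the default filter, no covariate and Benjamini-Hochberg adjustment over all genes tested. SE and intervals were derived from the F statistic. The fit was tested on simulated data. Alternatives were DESeq2 1.42.0, limma 3.58.1 (voom, and log2 of FPKM plus 1 or 0.1 where mean FPKM reached 0.1), RLE and upper quartile scaling, other filters, a replicate block and each library left out. No library was a copy: chi-square per degree of freedom was at least 4.44 for any pair. By this measure WT replicate 1 was nearer to the libraries labelled Lpar3-/- (8.34 to 9.57) than to WT replicates 2 and 3 (13.9 and 13.0).

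The members, gene lists and tests were chosen with earlier results of these data known. Besides the members, up to 4 genes with the lowest p of each list, its most abundant gene, Lpar3, Epo and the genes most correlated with the members (mean CPM of at least 1, predicted genes left out) were named by rule. Genes named only for standing highest in WT replicate 2, such as Atf3, were chosen by hand after their values were seen. Promoters and exon overlaps came from RefSeq (GRCm38.p6) and GENCODE M21.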

Additional observations from a re-analysis of the deposited data

How the results depend on the processing

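Across 15 alternatives, 141 of 150 member fold changes kept their sign and their side of the threshold, 7 were newly called and 2 changed sign, Havcr1 (0.11) and Spp1 (0.16), both without WT replicate 2, while the other fits with a library left out gave values down to -0.88 for Havcr1 and -0.35 for Spp1. With no filter on low counts edgeR called 520 of 26645 genes tested, and 6 of the 10 members. The estimated prior degrees of freedom, 7.75 with the default filter, were then infinite, so that each gene's own spread no longer entered the test. DESeq2 called 173 of 26645 genes with any counts, where edgeR called 57 of 15225. Of 18499 genes, limma called 9 on log2(FPKM + 1) and 13 on log2(FPKM + 0.1). The cause was not tested. With 1 library left out, edgeR called 12 to 149 genes and 0 to 1 members. The 1 member was Krt20 without WT replicate 1, the fit that called 149 of 15595 genes. The median member fold change ran from -0.62 to -0.16, and 4 to 6 members lay lower without overlap. With a library fewer, such a split is more common over all genes too. It held for 12.4% of them without WT replicate 2, against 7.12% with 6 libraries. The share was not taken for the other fits, so the higher member counts do not show a stronger result.

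The replicate numbers pair no samples by the labels. Correlations of deviations between same-numbered libraries were 0.011, 0.020 and 0.062, and WT replicate 2 correlated best with replicate 1 of the other group. With the replicate block edgeR called 0 members and 80 genes, and the median member fold change was -0.39. Depth limits Krt20 and Sox9, each with under 100 counts in every library.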
